A study of Mus musculus with 2 samples.

Results

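The genes described here are 5 genes of C/EBP transcription factors, Cebpa, Cebpb, Cebpd, Cebpe and Cebpg, out of 21755 protein-coding genes in the annotation. Below, the family means these 5 listed genes, which were taken up with earlier results of these data known. Ddit3 and Cebpz are not on this list and are set among the related genes near the end. What was measured is the accessibility of their chromatin in hematopoietic stem cells (HSCs) of mice of different ages, by single-cell ATAC-seq, in which a transposase cuts open DNA and each sequenced fragment carries the barcode of its nucleus. There were 2 libraries of C57BL/6 bone marrow HSCs, 1 from 10-week-old (Young) and 1 from 20-month-old (Aged) mice, with no engineered allele and no treatment in either. The cells were sorted as Lin-, IL-7Rα- and Flt3- cells that were c-kit+ and Sca-1+ and, within these, CD150+ but CD48- and CD34-. The study's methods give female mice. With 1 library per age there is no replicate, no difference could be tested against the spread between mice, and each interval below is a 95% interval that covers counting error only. The labels do not give the number of mice behind a library.

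C/EBP proteins are bZIP transcription factors that bind DNA as dimers, with themselves, with each other or with related factors such as those of the ATF family. C/EBPα is needed to form granulocyte-monocyte progenitors and restrains HSC proliferation, C/EBPβ drives granulocyte production on demand during infection, and C/EBPδ is an acute-phase factor induced by cytokines. C/EBPε acts late in the granulocyte lineage on the genes of the secondary granules, and C/EBPγ lacks a strong activation domain and serves mainly as a dimer partner. A myeloid enhancer of Cebpa is known 37 kb downstream of its transcription start site (TSS).

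All 5 genes are short and lie on 4 chromosomes of mm10. Cebpa spans chr7:35119293-35121928 on the plus strand, and Cebpg spans chr7:35046422-35056573 on the minus strand of the same chromosome. Their TSSs lie 62720 bp apart and point away from each other, so that 242 of the 388 bins of the Cebpa flanks (62.4%) touch a flank of Cebpg and the values of these genes' flanks are not separate measurements. Cebpb is at chr2:167688915-167690418 and Cebpd at chr16:15887286-15891031, both on the plus strand, and Cebpe is at chr14:54710360-54712174 on the minus strand. An annotated TSS of Tmem189 lies 0.907 kb into Cebpb, so the promoter windows of this pair share fragments.

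The sequences on which the values turn come from the GRCm38 assembly, and capitals mark every match to 1 of 10 fixed consensus motifs on either strand. The C/EBP motif was searched as TTGCGCAA and more loosely as TTGCNNAA, which contains the former. For other factors the letters were TGACGTCA for the CRE bound by CREB and ATF proteins, TTCNNNGAA for STAT proteins and TGANTCA for AP-1. Shorter motifs were AGATAA for the GATA factors, TGTGGT for the RUNX factors, GGAAGT for the ETS factors, CAGCTG for the E-box proteins and GGGCGG for the KLF and SP factors. A match is a description of the letters and not evidence of a bound factor. RefSeq promoter sequences (GRCm38.p6) were matched for 3 members, whose promoters were open at both ages. Cebpd, also open at both ages, and Cebpe had no entry to match. The 250 bases before the TSS are printed in the direction of the gene: Cebpa (chr7:35119043-35119292, plus strand), Cebpb (chr2:167688665-167688914, plus strand) and Cebpg (chr7:35056567-35056816, minus strand).
Cebpa: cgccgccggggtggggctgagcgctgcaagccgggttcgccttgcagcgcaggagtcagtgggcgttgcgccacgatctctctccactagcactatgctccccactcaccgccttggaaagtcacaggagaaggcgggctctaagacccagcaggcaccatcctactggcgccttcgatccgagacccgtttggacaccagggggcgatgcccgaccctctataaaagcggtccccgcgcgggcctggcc
Cebpb: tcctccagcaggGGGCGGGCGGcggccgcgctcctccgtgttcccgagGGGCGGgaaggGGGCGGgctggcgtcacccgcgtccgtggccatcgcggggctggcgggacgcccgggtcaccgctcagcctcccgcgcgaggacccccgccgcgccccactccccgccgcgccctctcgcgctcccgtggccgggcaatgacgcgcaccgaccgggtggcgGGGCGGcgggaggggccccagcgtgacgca
Cebpg: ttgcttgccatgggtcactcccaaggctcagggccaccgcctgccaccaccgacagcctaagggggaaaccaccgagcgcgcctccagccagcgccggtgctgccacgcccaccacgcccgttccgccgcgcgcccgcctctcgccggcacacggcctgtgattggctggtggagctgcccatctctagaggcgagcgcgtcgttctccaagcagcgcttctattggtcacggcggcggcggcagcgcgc
The GC content was 66.4% for Cebpa, 81.6% for Cebpb and 70.8% for Cebpg. The Cebpb promoter held 5 matches to the KLF/SP motif, of which the first pair overlap, while the Cebpa and Cebpg stretches held no match to any of the 10 motifs. GGGCGG was found in 33.0% of 32619 promoter stretches of this length.

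Distal peaks are shown on the plus strand by the summit, the base with the highest density of transposase cuts, with 100 bases on either side. The first 4 are the Cebpa +37 kb peak (chr7:35156526-35156726), the most accessible intergenic peak near Cebpe (chr14:54705846-54706046) and a pair of strong peaks downstream of Cebpb (chr2:167775396-167775596 and chr2:167777386-167777586). The last 2 are peaks that were higher in the aged library, downstream of Cebpd (chr16:15948256-15948456) and upstream of Cebpe (chr14:54728896-54729096).
Cebpa +37.3 kb: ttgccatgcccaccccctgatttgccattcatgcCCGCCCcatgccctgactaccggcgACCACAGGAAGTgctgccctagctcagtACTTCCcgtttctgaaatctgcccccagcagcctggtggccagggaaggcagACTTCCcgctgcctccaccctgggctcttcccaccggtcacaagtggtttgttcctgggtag
Cebpe +6.23 kb: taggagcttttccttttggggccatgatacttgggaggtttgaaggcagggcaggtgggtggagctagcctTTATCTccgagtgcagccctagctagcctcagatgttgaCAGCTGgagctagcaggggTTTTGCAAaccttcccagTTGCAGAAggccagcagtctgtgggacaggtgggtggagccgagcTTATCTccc
Cebpb +86.6 kb: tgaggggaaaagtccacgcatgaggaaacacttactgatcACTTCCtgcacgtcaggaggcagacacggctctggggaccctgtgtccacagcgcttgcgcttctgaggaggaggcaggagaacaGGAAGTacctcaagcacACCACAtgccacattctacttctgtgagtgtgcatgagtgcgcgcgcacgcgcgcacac
Cebpb +88.6 kb: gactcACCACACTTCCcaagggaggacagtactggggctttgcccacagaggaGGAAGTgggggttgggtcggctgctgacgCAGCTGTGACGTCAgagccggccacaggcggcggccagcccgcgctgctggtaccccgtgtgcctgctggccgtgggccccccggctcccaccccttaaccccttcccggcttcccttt
Cebpd +61.1 kb: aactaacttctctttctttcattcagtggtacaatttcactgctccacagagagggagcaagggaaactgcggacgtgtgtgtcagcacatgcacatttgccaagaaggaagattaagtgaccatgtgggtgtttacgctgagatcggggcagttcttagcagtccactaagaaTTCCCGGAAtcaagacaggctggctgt
Cebpe −16.8 kb: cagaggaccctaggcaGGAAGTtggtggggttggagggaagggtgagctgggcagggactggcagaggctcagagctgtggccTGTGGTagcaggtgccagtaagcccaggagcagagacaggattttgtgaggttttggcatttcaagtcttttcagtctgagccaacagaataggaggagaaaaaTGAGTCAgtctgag
The Cebpa +37.3 kb window held 3 ETS matches and 1 RUNX match, the latter directly beside an ETS match, and 1 KLF/SP match. Among the summit windows of all 165353 peaks, 29.2% held an ETS match, 22.3% a RUNX match and 12.5% a KLF/SP match. The Cebpe +6.23 kb window held 2 matches to TTGCNNAA, which occurs in 8.61% of summit windows, 2 GATA matches (8.74% of windows) and 1 E-box (13.6%). In the Cebpb +88.6 kb window a CRE match, present in 0.599% of summit windows, lay directly beside an E-box, with 2 ETS matches and 1 RUNX match nearby. The Cebpb +86.6 kb window held 2 ETS matches and 1 RUNX match. The Cebpd +61.1 kb window held 1 STAT match (6.05% of windows), and the Cebpe −16.8 kb window held 1 AP-1 (9.83%), 1 RUNX and 1 ETS match.

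Cells were barcodes that the authors' pipeline called as cells and that had 3000 to 20000 in-peak fragments, 4887 young and 3405 aged cells. They held 50065741 and 38659456 unique fragments, with medians of 9888 and 11019 per cell. Values are given as fragments per 1000000 fragments in peaks (FPM), the peaks being called on these cells, and 34616278 young and 26128961 aged fragments were in peaks. The libraries differed in fragment length and in signal at TSSs. Short fragments made up 59.8% of the young and 55.0% of the aged ones, by a cutoff slightly below the 150 bp used further on. The median TSS enrichments were 5.78 and 5.30. The part of these differences in the ratios below was not tested. In all, 26 barcodes were kept in both libraries (0.532% of young and 0.764% of aged cells). The label of the cells was checked on promoters of marker genes. The 10 HSC markers summed to 224 FPM in young and 221 FPM in aged cells, with Kit at 51.3 and 48.0 FPM and Meis1 at 41.3 and 42.9 FPM, while the annotated first TSS of Mecom was near closed (0.520 and 0.536 FPM). The 6 T-cell markers summed to 10.5 and 7.04 FPM, and the 8 granulocyte and monocyte markers to 25.9 and 28.2 FPM. Further sums were 40.2 and 37.6 FPM for 6 B-cell, 49.1 and 46.6 FPM for 6 erythroid, 115 and 104 FPM for 6 megakaryocyte and 23.6 and 24.4 FPM for 6 non-blood markers, and no marker was at 0 in either library. Of the B-cell sum in young cells 31.9 FPM lay at Vpreb1, and of the non-blood sum 18.1 FPM at Col1a1. By the median over their genes the megakaryocyte markers (19.9 and 17.4 FPM) were as open as the HSC markers (18.9 and 17.6 FPM), so that promoter accessibility did not set these apart.

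At their promoters, the TSS with 1 kb on either side, Cebpa, Cebpb, Cebpd and Cebpg were open at similar levels and Cebpe was nearly closed, in young and aged HSCs alike. The order in the young library was Cebpg, Cebpa, Cebpd, Cebpb and Cebpe, and in the aged library Cebpg, Cebpd, Cebpa, Cebpb and Cebpe. Neighbours in these orders had overlapping counting intervals, except Cebpg against Cebpa in the young library and Cebpb against Cebpe in both. None of the 5 promoters passed a log2 ratio of 0.5 (1.41-fold) in either direction. Of the 15978 promoters of protein-coding genes with at least 50 fragments, 5.13% passed it upward and 1.89% downward, with a median log2 ratio of −0.054 and a 5th to 95th percentile range of −0.28 to 0.51. Being within the fold was thus the common case.

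**Figure D1:**
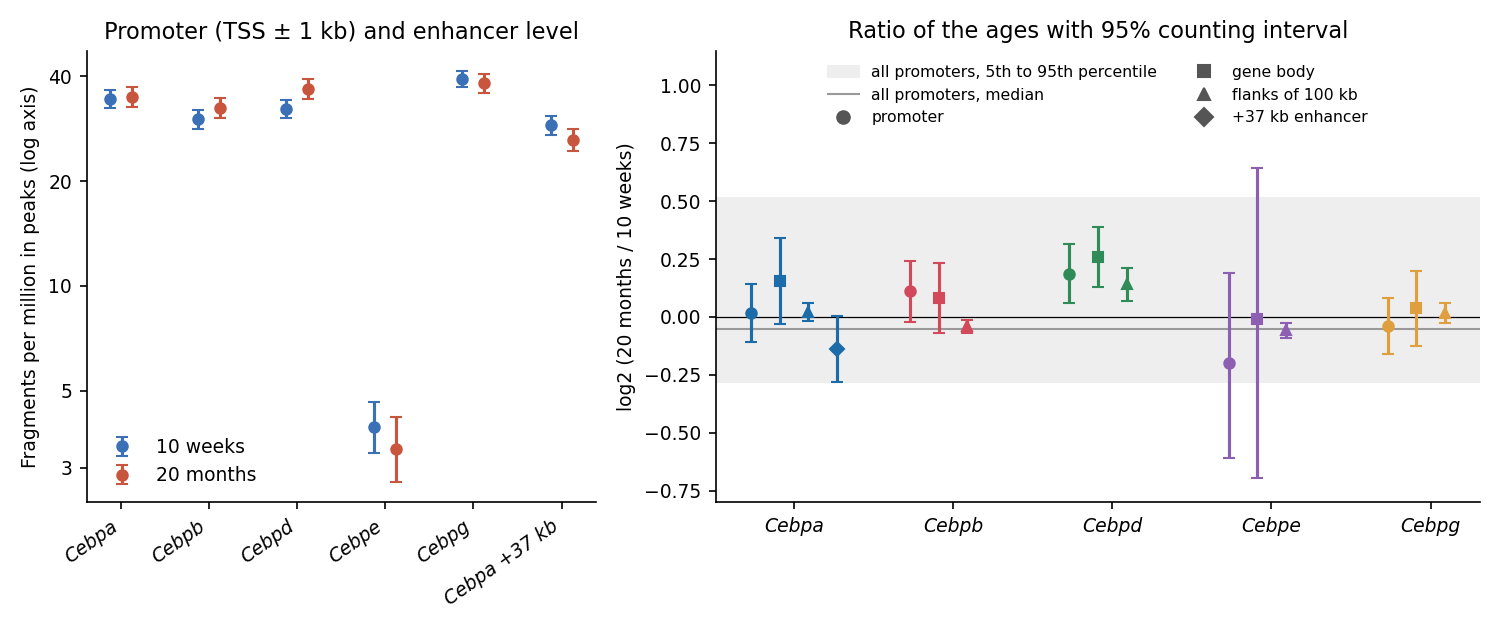
Left, promoter level of each C/EBP gene and level of the Cebpa +37 kb window in FPM (log axis) at 10 weeks (blue) and 20 months (red), with exact Poisson 95% intervals. Right, log2 ratio of the ages for promoter, gene body, flanks and enhancer with 95% counting intervals, over the range of all promoters (grey). This range, from the 5th to the 95th percentile, is that of promoters only. Between the same percentiles the flanks of protein-coding genes ran from −0.12 to 0.35. Cebpe, at 3.93 and 3.41 FPM, lies far below the other promoters on the left, and the Cebpd ratios of 0.19 (promoter), 0.26 (gene body) and 0.14 (flanks) all have intervals above 0.

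Cebpa, the factor of granulocyte-monocyte commitment, had 34.4 FPM at its promoter in young HSCs and 34.8 FPM in aged HSCs, from 1192 and 910 fragments. The log2 ratio was 0.017 (−0.11 to 0.14), with values of both signs, from −0.075 to 0.081, under other settings. This level stood at the 73.3rd and 75.6th percentile of all protein-coding promoters. Over the gene body the level was 15.4 FPM in young and 17.1 FPM in aged cells, a log2 ratio of 0.16 with an interval across 0 (−0.029 to 0.34) and −0.094 in cells thinned to 5000 fragments. The gene body takes 37.97% of its length from the promoter window, so these values share fragments. The summit of the promoter peak lay 77 bp upstream of the TSS, inside an intron of the annotated transcript Gm45091, and the peak held 33.4 and 32.6 FPM.

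The Cebpa +37 kb enhancer was open in HSCs of both ages, and its peak was somewhat lower in the aged library. The window from 36 to 38 kb downstream of the TSS (chr7:35155293-35157292, intergenic) held 28.9 FPM in young and 26.3 FPM in aged cells, from 1001 and 686 fragments, with a log2 ratio of −0.14 (−0.28 to 0.0022). Most of this came from the 500-bp bin that starts 37 kb downstream, which held 22.4 and 20.2 FPM. The only peak in the window (chr7:35156291-35157030, summit at +37.3 kb) held 26.2 FPM in young and 22.7 FPM in aged cells, a log2 ratio of −0.21 (−0.36 to −0.059) that ran from −0.32 to −0.13 under other scalings, cell sets and fragment lengths. Among all peaks with at least 50 fragments this ratio stood at the 23.0th percentile, while the young level of the peak stood at the 94.5th. That background includes peaks with far fewer fragments and wider counting intervals. Neither this rank nor the ranks among all peaks given below were matched for coverage. The share of fragments under 150 bp in the window was 70.6% (67.7 to 73.4) in young and 63.6% (59.8 to 67.2) in aged cells, beside 68.0% and 64.4% over all promoters, and its part in the ratio was not tested.

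The other strong peaks around Cebpa differed little between the ages. Apart from the Cebpg promoter, the strongest were at −32.5 kb (16.8 and 17.5 FPM, log2 ratio 0.063) and +52.7 kb (16.9 and 17.2 FPM, log2 ratio 0.030), both intergenic. A weaker intergenic peak at +5.67 kb (chr7:35124821-35125090) held 6.70 FPM in young and 4.63 FPM in aged cells, a log2 ratio of −0.53 (−0.86 to −0.21), and was the only Cebpa flank peak past the fold downward among the 24 with at least 50 fragments. Its neighbour at +8.03 kb, chosen after its values were seen, held 14.0 and 11.8 FPM (log2 ratio −0.24, −0.45 to −0.033). In contrast, a peak at −37.99 kb held 13.8 FPM in young and 16.5 FPM in aged cells (log2 ratio 0.26, 0.071 to 0.45, and 0.17 at the lowest under other settings). A small peak at −81.7 kb in an intron of Pepd held 0.838 FPM in young and 1.84 FPM in aged cells, from 29 and 48 fragments (log2 ratio 1.11, 0.44 to 1.85, and 0.74 at the lowest). The ratios of the peaks at −1.53 kb (log2 ratio 0.50, −0.12 to 1.12) and +30.2 kb (log2 ratio −0.48, −1.42 to 0.35) had intervals across 0. Summed over the 100-kb flanks with the enhancer left out, the Cebpa locus had 333 FPM in young and 338 FPM in aged cells, with log2 ratios of 0.081 (0.026 to 0.14) upstream and −0.042 (−0.10 to 0.016) downstream. For both sides together the log2 ratio was 0.022 (−0.018 to 0.062), and −0.023 with flanks of 50 kb.

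**Figure D2:**
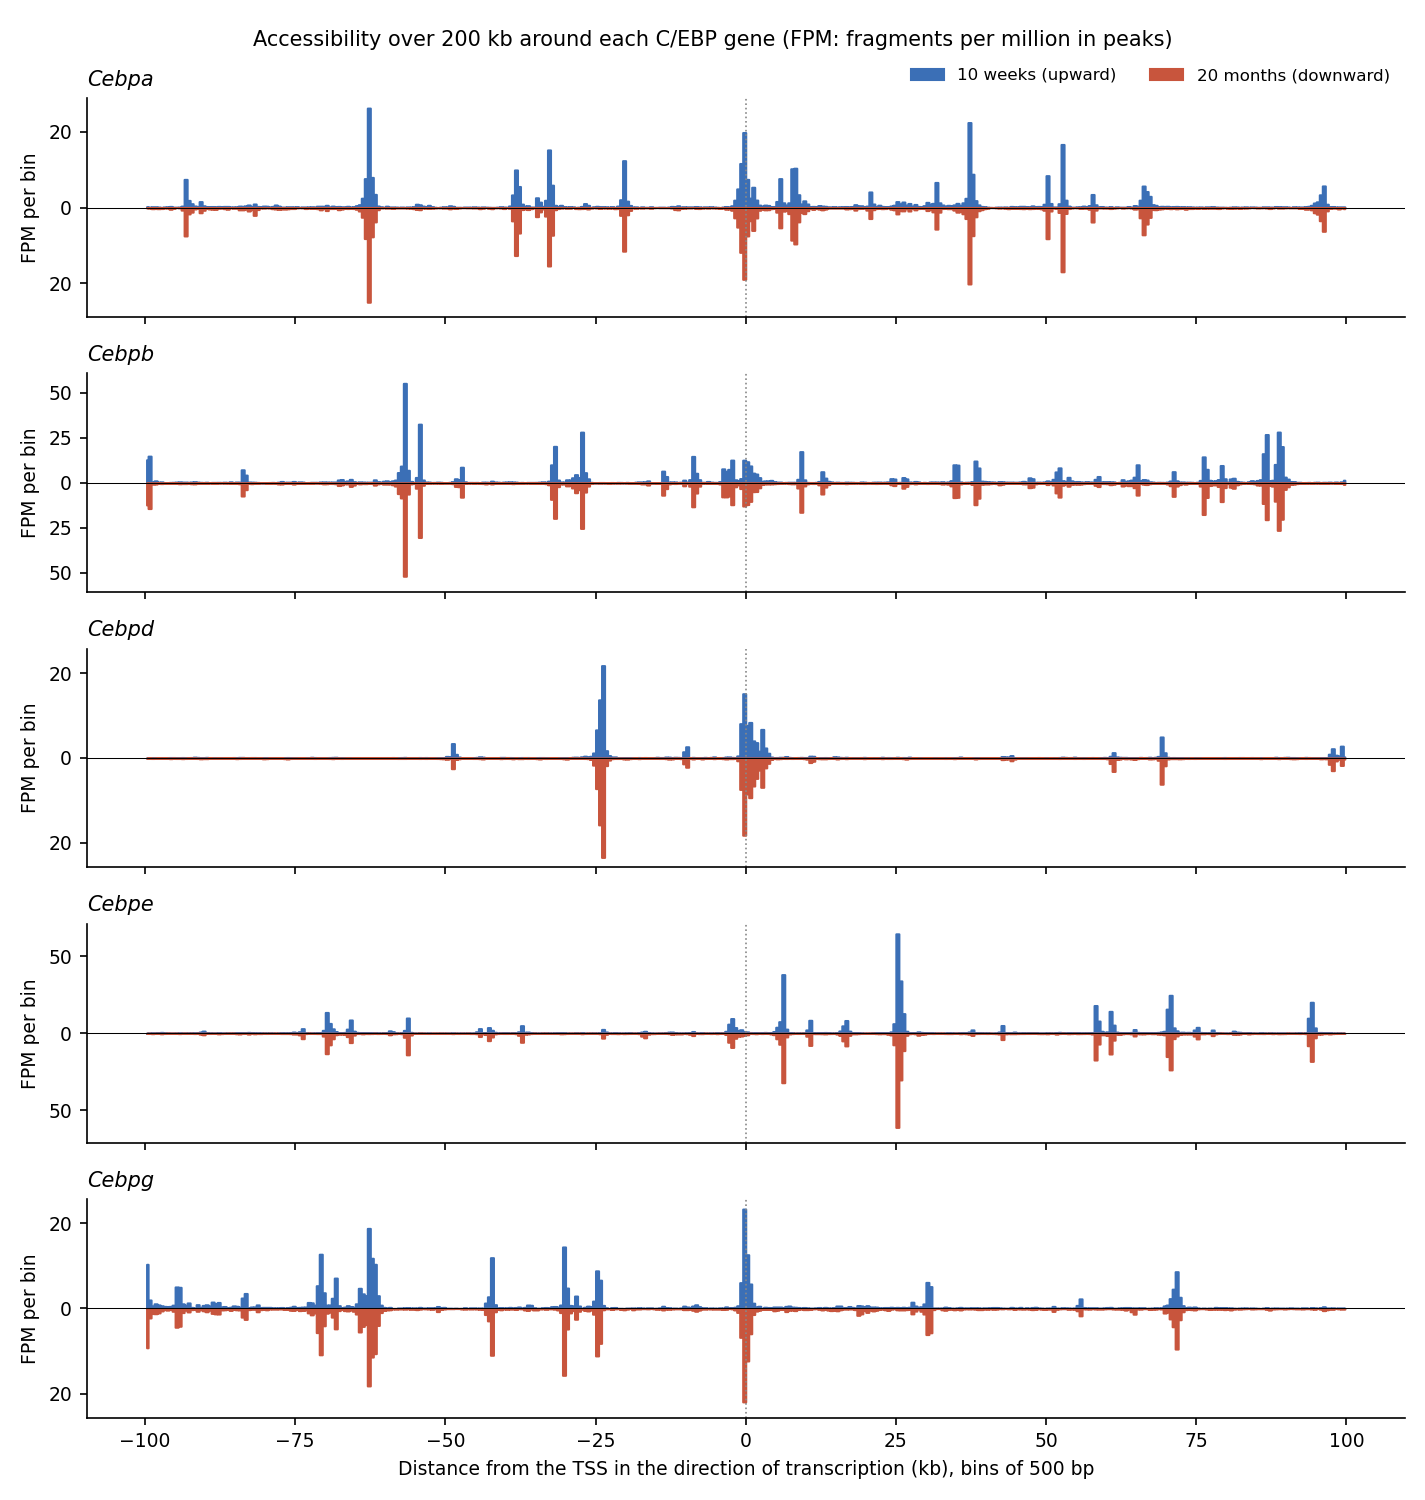
Accessibility in FPM in bins of 500 bp from 100 kb upstream to 100 kb downstream of each TSS, young HSCs upward in blue and aged HSCs downward in red, with a separate scale for each gene. The profiles mirror each other, Cebpd lies in a stretch with few open bins, and near Cebpe the tallest bins lie at +6.23 and +25.4 kb and not at the TSS.

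Cebpg, whose product pairs with other bZIP proteins, had the most accessible promoter of the family. It held 39.2 FPM in young and 38.2 FPM in aged HSCs, from 1357 and 997 fragments, at the 78.5th and 79.6th percentile of promoters. The log2 ratio was −0.039 (−0.16 to 0.080), and 0.082 in cells thinned to 5000 fragments. The promoter peak held 34 and 32.9 FPM with its summit 93 bp upstream of the TSS, and a weaker peak 713 bp upstream of the TSS, in an exon of Gm45096, held 5.17 and 5.40 FPM. Over the gene body the levels were 20.9 and 21.4 FPM (log2 ratio 0.038, −0.12 to 0.20), and a body peak at +6.98 kb rested on 16 and 19 fragments. Among the flank peaks with most fragments, apart from the Cebpa promoter, were the peaks described above as −32.5 kb and −37.99 kb from Cebpa, which lie −30.2 kb and −24.7 kb from Cebpg. Flanks summed to 282 and 285 FPM (log2 ratio 0.017, −0.027 to 0.060), and the ratio ran from −0.034 in cells of 5000 to 10000 in-peak fragments to 0.078 with flanks of 50 kb. The downstream side, away from Cebpa, was at 65.3 and 72.5 FPM (log2 ratio 0.15, 0.063 to 0.24).

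Cebpb, the factor of emergency granulopoiesis, had 30.1 FPM at its promoter in young and 32.5 FPM in aged HSCs, from 1041 and 848 fragments. The log2 ratio of 0.11 had an interval across 0 (−0.023 to 0.24), and was −0.046 in cells of 5000 to 10000 in-peak fragments and 0.26 in cells thinned to 5000 fragments. Accessibility was split between a peak at the TSS (19.1 and 19.5 FPM, summit at +0.011 kb) and a peak at +0.921 kb over the coding exon and the Tmem189 TSS (8.61 and 9.30 FPM). The gene body held 23.5 and 24.9 FPM (log2 ratio 0.082, −0.069 to 0.23, and from −0.047 to 0.29 in the same sets of cells). At 15.7 FPM per kb in young cells it was the densest body of the family, at the 99.0th percentile of all gene bodies, although 66.6% of its length lies in the promoter window.

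The flanks of Cebpb were the most open of the family, and some of their peaks were lower in aged HSCs. They summed to 739 FPM in young and 718 FPM in aged cells, a log2 ratio of −0.040 (−0.068 to −0.013), which stood at the 36th percentile of the flanks of 19182 protein-coding genes and turned to 0.011 when scaled to fragments near all TSSs. By fragments of both libraries together, the strongest peaks were at −56.8 kb, over the promoter of Ube2v1 (60.1 and 56.99 FPM), at +88.6 kb in an exon of Gm14321 (45.9 and 43.5 FPM) and at −54.3 kb (32.1 and 30.2 FPM). The intervals of their ratios spanned 0, unlike that of the next peak in this order.

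That peak, intergenic at +86.6 kb (chr2:167775111-167775830) and chosen after its values were seen, held 34.3 FPM in young cells, more than the −54.3 kb peak, and 24.9 FPM in aged cells. It rested on 1187 and 650 fragments, with a log2 ratio of −0.46 (−0.60 to −0.32) at the 9.59th percentile of all peaks. Under other scalings, cell sets and fragment lengths this ratio ran from −0.49 to −0.42. Among peaks with at least 50 fragments, those with the lowest ratios were at +24.6 kb in an intron of A530013C23Rik (2.92 and 1.72 FPM, log2 ratio −0.74, −1.30 to −0.24) and at +58.7 kb (4.16 and 2.49 FPM, log2 ratio −0.73, −1.19 to −0.31, and −0.48 at the weakest under other settings). An intergenic peak at +65.1 kb, also chosen after its values were seen, held 10.1 and 7.12 FPM (log2 ratio −0.51, −0.77 to −0.25). In the other direction, the +76.4 kb peak, also chosen after its values were seen, held 17.4 and 20.6 FPM (log2 ratio 0.25, 0.076 to 0.42, and from 0.21 to 0.43 under other settings). The +71.2 kb peak held 6.27 and 7.96 FPM (log2 ratio 0.34, 0.063 to 0.63), and the −2.97 kb peak in Tmem189 had a log2 ratio of 0.29 with an interval across 0 (−0.16 to 0.73).

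**Figure D3:**
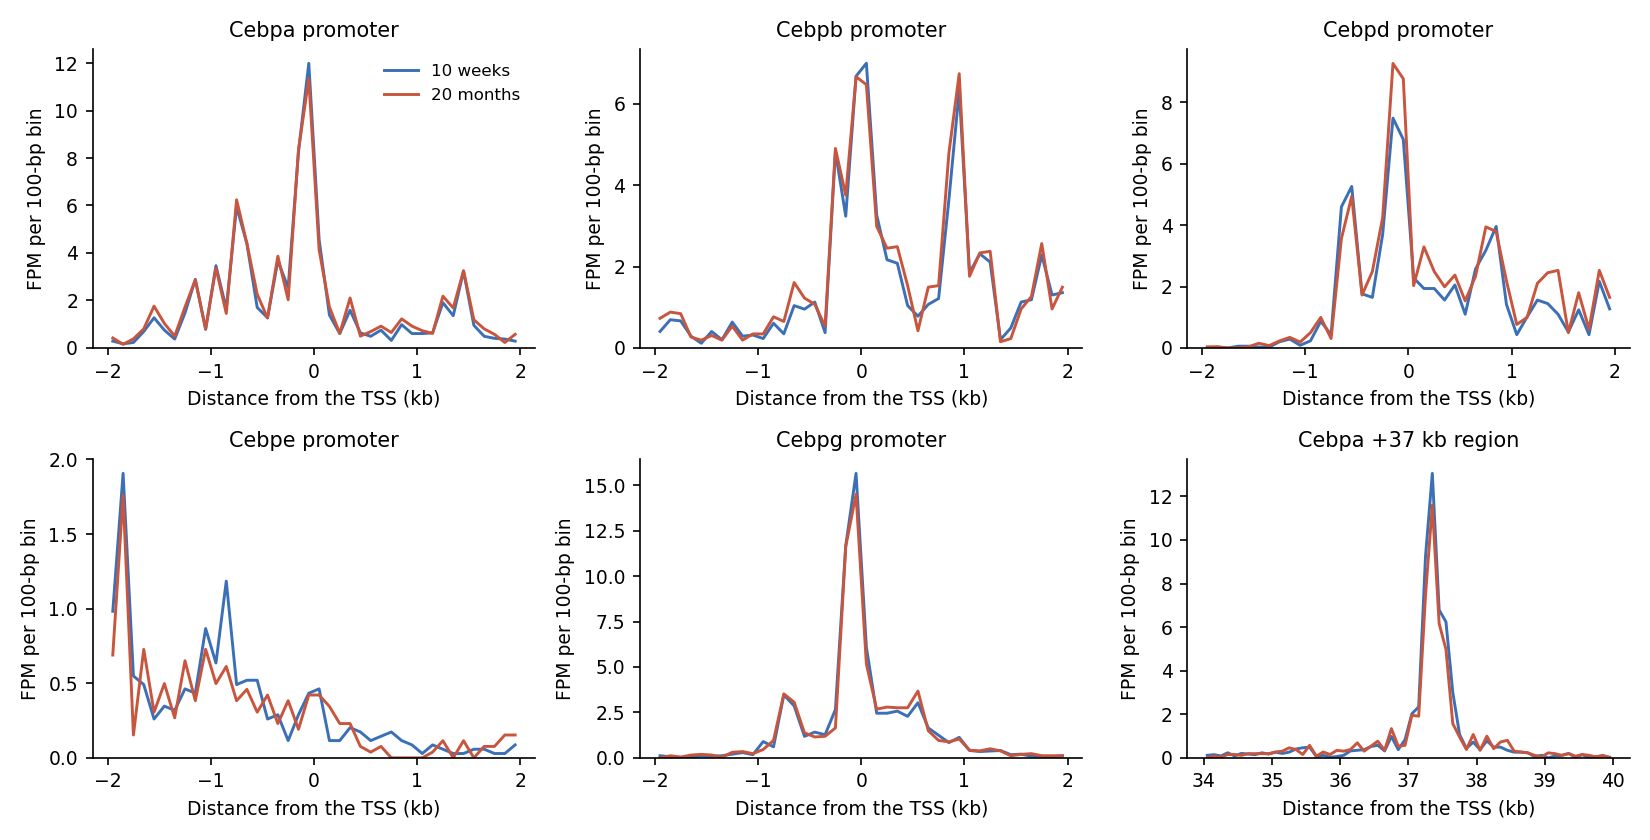
Accessibility in FPM in bins of 100 bp within 2 kb of each TSS and from 34 to 40 kb downstream of the Cebpa TSS, for young (blue) and aged (red) HSCs, with a separate scale per panel. The summits of Cebpa, Cebpb, Cebpd and Cebpg lie at the TSS, Cebpe has none there, and the aged curve is above the young one at the Cebpd TSS and below it at the Cebpa +37 kb summit.

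Cebpd, the acute-phase member, was the gene of the family whose promoter, gene body and flank ratios all had intervals above 0. Those of Cebpa were also positive, with intervals across 0. Under other settings the Cebpd ratios stayed positive but varied in size, from 0.15 to 0.34 for the promoter (the highest in cells thinned to 5000 fragments), from 0.18 to 0.36 for the body and from 0.066 to 0.19 for the flanks. Its promoter held 32.3 FPM in young and 36.8 FPM in aged cells, from 1118 and 961 fragments. The log2 ratio was 0.19 (0.062 to 0.31), at the 84.7th percentile of promoter ratios, so this size is not unusual among genes. The gene body held 29.4 and 35.2 FPM (log2 ratio 0.26, 0.13 to 0.39, 88.1st percentile of gene bodies). With 26.7% of the body in the promoter window, these values share fragments. The promoter peak at −0.120 kb held 31.9 and 36.3 FPM (log2 ratio 0.19, 0.059 to 0.31, and 0.33 at the highest under other settings).

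The peaks within Cebpd had unlike ratios. One at +1.36 kb in the UTR (chr16:15888531-15888780) held 2.77 FPM in young and 5.05 FPM in aged cells, from 96 and 132 fragments, a log2 ratio of 0.86 (0.48 to 1.26). Further along the UTR, the peak at +1.88 kb had a log2 ratio of 0.32 (−0.14 to 0.78) and that at +2.85 kb one of −0.084 (−0.39 to 0.22).

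The flanks of Cebpd were the least open of the family, with 103 FPM in young and 113 FPM in aged cells (log2 ratio 0.14, 0.071 to 0.21, 83.4th percentile of flanks), and the ratio was 0.066 with flanks of 50 kb. Only 14 of the 390 flank bins had at least 50 fragments. The promoter of Mzt2 at −23.9 kb was the strongest peak (35.1 and 37.1 FPM, log2 ratio 0.080). Downstream the sum was 31.5 FPM in young and 39.5 FPM in aged cells (log2 ratio 0.32, 0.20 to 0.45), against 0.054 (−0.033 to 0.14) upstream. Within Spidr introns, the +61.1 kb peak (chr16:15948161-15948790) held 1.47 and 3.44 FPM from 51 and 90 fragments, a log2 ratio of 1.21 (0.71 to 1.75) at the 96.5th percentile of all peaks. Also in Spidr, the +69.4 kb peak held 5.46 and 7.04 FPM (log2 ratio 0.37, 0.066 to 0.67, and 0.22 at the lowest under other settings). At +97.7 kb the ratio was 0.41 (−0.025 to 0.84). The +99.1 kb peak went the other way, with 2.80 and 1.65 FPM (log2 ratio −0.75, −1.32 to −0.24, and from −1.38 to −0.43 under other settings), and the −48.6 kb peak in Prkdc had a log2 ratio of −0.41 (−0.88 to 0.027).

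Cebpe, the late granulocyte member, had almost no accessibility at its TSS at either age. Its promoter held 3.93 FPM in young and 3.41 FPM in aged HSCs, from 136 and 89 fragments, at the 35.8th and 34.1st percentile of promoters. The log2 ratio of −0.20 had a wide interval across 0 (−0.61 to 0.19), and it was 0.30 within 500 bp of the TSS (54 and 50 fragments) and −0.79 in cells thinned to 5000 fragments (67 and 25 fragments). The gene body held 1.36 and 1.34 FPM, or 0.748 and 0.738 FPM per kb. The only peak in promoter or body was a small one at −0.842 kb with 53 and 28 fragments, whereas each of the other 4 genes had a peak summit within 120 bp of its TSS.

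Strong accessibility lay instead at a distance from Cebpe. The intergenic +6.23 kb peak (chr14:54705641-54706330) held 39.8 FPM in young and 33.8 FPM in aged cells, from 1378 and 882 fragments. Per length this was 57.7 and 48.9 FPM per kb, against 1.96 and 1.70 FPM per kb in the promoter window. The log2 ratio was −0.24 (−0.36 to −0.11), at the 20.7th percentile of all peaks, and ran from −0.27 to −0.16 under other scalings, cell sets and fragment lengths. The peak nearest upstream of the promoter window, at −2.09 kb and chosen after its values were seen, held 14.2 and 13.4 FPM (log2 ratio −0.084, −0.29 to 0.12).

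The strongest flank peaks of Cebpe otherwise belonged to promoters of other genes, that of Acin1 and 1700123O20Rik at +25.4 kb (90.0 and 83.4 FPM, log2 ratio −0.11, and from −0.14 to −0.045 under other settings) and that of Cdh24 and Gm17606 at +70.8 kb (34.03 and 31.7 FPM, log2 ratio −0.10). Upstream, within introns of Slc7a8, the −16.8 kb peak (chr14:54728861-54729340) held 1.39 FPM in young and 3.33 FPM in aged cells (48 and 87 fragments, log2 ratio 1.25, 0.74 to 1.80, 96.8th percentile). The −56.3 kb peak (chr14:54768121-54768880) held 10.3 FPM in young and 14.7 FPM in aged cells, a log2 ratio of 0.52 (0.31 to 0.73), and was the best covered peak of the family past the fold upward. In the same gene the −59.1 kb peak held 1.59 and 0.880 FPM (log2 ratio −0.82, −1.62 to −0.13), and the +37.6 kb peak in Acin1 held 2.28 and 1.30 FPM (log2 ratio −0.79, −1.44 to −0.21, and −1.24 at the lowest under other settings). Flank sums were 522 and 502 FPM (log2 ratio −0.057, −0.089 to −0.024). The flank ratio was −0.0058 when scaled to fragments near all TSSs and −0.021 in cells of 5000 to 10000 in-peak fragments. By side it was −0.10 (−0.14 to −0.062) downstream and 0.062 (−0.0012 to 0.12) upstream.

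Over all flanks, with shared features counted once, higher and lower bins were about as many at a log2 ratio of 0.5. At that ratio more peaks were lower than higher in aged HSCs, mainly through those near Cebpb, though not at a log2 ratio of 1. Of 1698 bins, 277 had at least 50 fragments, of which 24 (8.66%) passed a log2 ratio of 0.5 upward and 26 (9.39%) downward. Across 299411 bins of the genome under the same rule, 17.0% passed upward and 6.76% downward. The Cebpb flanks gave 11 of the higher and 16 of the lower bins from 122 with enough fragments. For peaks, 4 of the 106 flank peaks with at least 50 fragments passed upward and 11 downward, against backgrounds of 16.0% and 8.41% of 128414 peaks. Near Cebpb 0 passed upward and 6 downward. Near Cebpe 2 passed upward and 3 downward, and near Cebpa, Cebpd and Cebpg 1 each way, with peaks of Cebpa and Cebpg shared. At a log2 ratio of 1, 3 peaks were higher and 0 lower. With peaks called at q under 1e-10, more than 4 peaks were higher at a log2 ratio of 0.5, and the lower count is not given here. With bins of at least 20 fragments, 97 were higher and 77 lower at a log2 ratio of 0.5. The median log2 ratio was −0.044 over the flank peaks and 0.013 over all peaks. Whether these shares differ beyond what 1 library per age can show was not tested. Among peaks with fewer than 50 fragments, the largest ratio was that of a Cebpg flank peak at +64.6 kb in an intron of Pepd, chosen after its values were seen, with 5 young and 34 aged fragments (log2 ratio 2.95, 1.81 to 4.88).

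**Figure D4:**
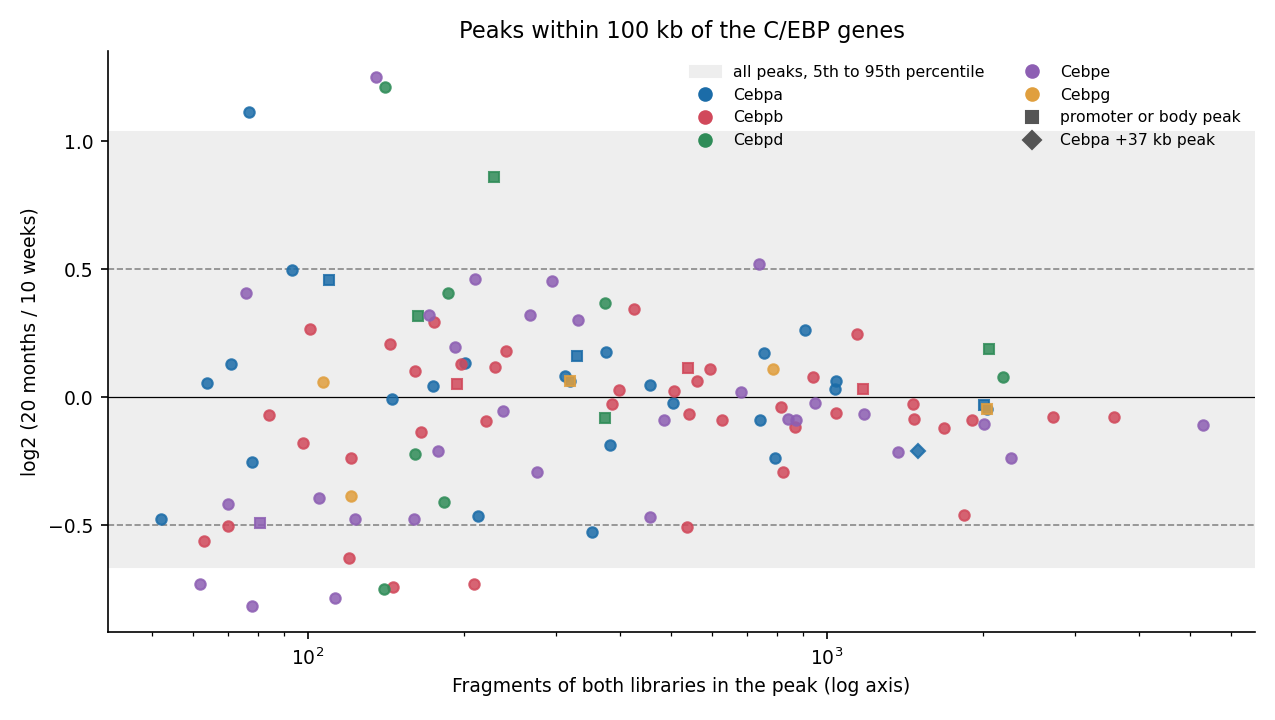
Log2 ratio of aged to young HSCs against the number of fragments of both libraries (log axis) for each peak within 100 kb of a C/EBP TSS with at least 50 fragments, coloured by gene. The dashed lines mark log2 ratios of 0.5 in both directions, the grey band runs from the 5th to the 95th percentile of all peaks, and the peaks past a log2 ratio of 1 (1.11, 1.21 and 1.25) are poorly covered ones.

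Besides Cebpa and Cebpg, which lie in each other's flanks, the flanks held the promoters of Slc7a10, Lrp3, Ube2v1, Gm20431, Tmem189, Mzt2, Psmb5, Psmb11, Cdh24, Gm17606, Acin1, 1700123O20Rik, Gm29776 and Slc7a8. No neighbour with at least 50 fragments passed the fold, which is the common case, since 5.13% of all promoters passed it upward and 1.89% downward. The log2 ratios of these neighbours ran from −0.22 (−0.38 to −0.068) for Psmb5, which encodes a proteasome subunit, to 0.11 (−0.11 to 0.33) for Slc7a10, an amino acid transporter gene. Psmb11 had 9 and 7 fragments and was not rated.

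Per cell, the promoters of Cebpa, Cebpb, Cebpd and Cebpg were seen in about 1 cell in 10 and that of Cebpe in far fewer. Each cell was thinned to 5000 unique fragments, which left out 229 shallower young and 254 shallower aged cells. A fragment at the Cebpa promoter was then found in 11.6% (10.7 to 12.5) of 4658 young and 10.8% (9.73 to 11.9) of 3151 aged cells. For Cebpg the shares were 12.3% (11.4 to 13.3) and 12.6% (11.5 to 13.8), and for Cebpb 9.64% (8.81 to 10.5) and 11.2% (10.1 to 12.4). Cebpd was seen in 10.1% (9.22 to 10.97) of young and 12.2% (11.1 to 13.4) of aged cells. Among the member promoters, only its intervals did not overlap. They cover counting error within 1 library per age, so this is no test between the ages. The fragments are drawn from those behind the promoter ratio, so the share is not a separate observation. How many of all promoters have intervals that do not overlap was not counted, so the gap does not set Cebpd apart from other genes. With thinning to 3000 fragments the Cebpd intervals overlapped, at 6.24% (5.58 to 6.96) and 6.90% (6.07 to 7.81). The Cebpa +37 kb window gave 9.34% (8.52 to 10.2) and 8.03% (7.10 to 9.03).

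Cebpe was seen in 1.37% (1.06 to 1.75) of young and 0.793% (0.514 to 1.17) of aged cells, from 64 and 25 cells. As a background, the promoters of 24 B-cell, T-cell, erythroid and non-blood markers were seen in a median of 0.354% of young and 0.301% of aged cells, ranging up to 10.2% and 9.58%. The granulocyte and monocyte markers, of the lineage in which C/EBPε acts, were not in this background. Without thinning, the shares for Cebpd were 19.8% and 23.7%, for Cebpa 21.3% and 22.4%, and for Cebpe 2.64% and 2.58%. These unthinned shares compare cells of unequal depth, the aged ones having more fragments per cell.

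**Figure D5:**
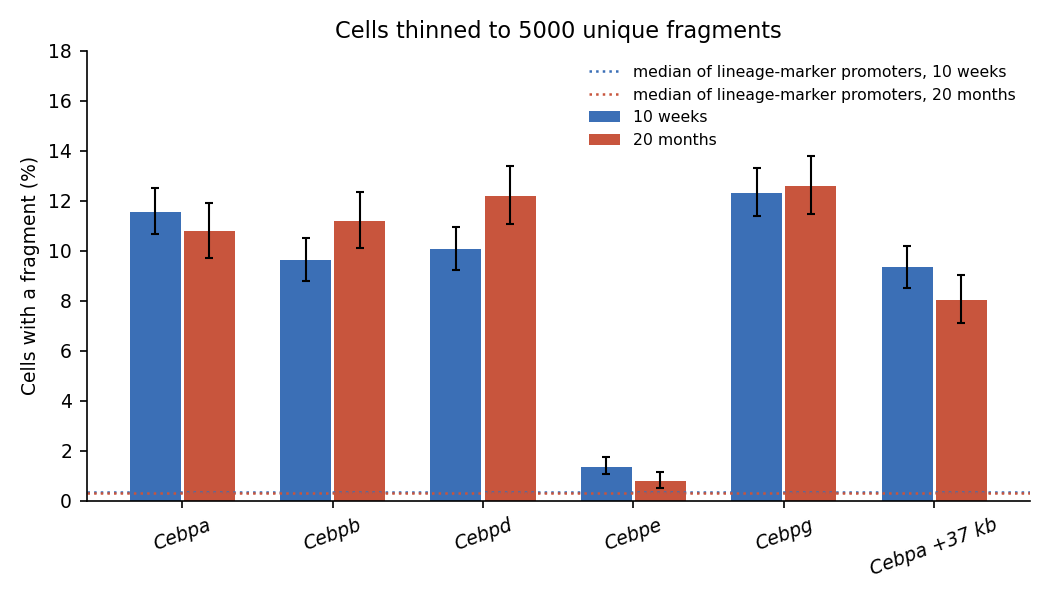
Share of cells with at least 1 fragment at each C/EBP promoter or in the Cebpa +37 kb window after thinning to 5000 unique fragments, for young (blue) and aged (red) HSCs, with exact binomial 95% intervals. Dotted lines near the axis mark the median share for promoters of B-cell, T-cell, erythroid and non-blood markers, 0.354% and 0.301%. The Cebpe bars of 1.37% and 0.793% are nearest to them.

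Cells with a fragment at 1 member were compared with the other cells for a fragment at another. The intervals overlapped in each comparison, which does not show that the shares are equal. Among young cells with a Cebpa promoter fragment, 8.53% (6.32 to 11.2) had a fragment in the +37 kb window, against 9.44% (8.57 to 10.4) of the other young cells. In aged cells the shares were 8.82% (6.03 to 12.4) and 7.93% (6.96 to 8.99). For Cebpb and Cebpd, 7.80% (5.49 to 10.7) of young cells with a Cebpb fragment also had a Cebpd fragment, against 10.3% (9.41 to 11.3) without. In aged cells the shares were 8.499% (5.81 to 11.9) and 12.7% (11.4 to 13.9), whose intervals overlapped only narrowly. For a Cebpg fragment with and without a Cebpa fragment, the shares were 11.5% (8.93 to 14.5) and 12.4% (11.4 to 13.5) in young cells. In aged cells they were 13.2% (9.82 to 17.3) and 12.5% (11.3 to 13.8). No fragment at any of the 5 promoters was seen in 61.9% of young and 60.1% of aged cells, and at least 3 of the promoters were seen together in 17 young and 16 aged cells. At this sampling the absence of a fragment does not show a closed copy, and fragments were also found at promoters of markers of other tissues, such as Alb with 8 young and 8 aged fragments.

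The promoters of 14 genes of related factors and regulators were also set side by side. None passed the fold in either direction, which is the common case, since 5.13% of all promoters passed it upward and 1.89% downward. The 14 genes had a median log2 ratio of −0.059, beside −0.054 over all promoters. They comprise the bZIP genes Ddit3, Atf4, Atf5, Batf, Batf2, Batf3, Nfil3, Dbp, Tef and Hlf, the gene Cebpz, and the Tribbles genes Trib1, Trib2 and Trib3, the first pair of which encode proteins that target C/EBPα for degradation. Their promoters held 15.02 to 88.5 FPM in young and 14.8 to 80.5 FPM in aged cells. Tef had the lowest ratio, with 54.9 and 46.7 FPM (log2 ratio −0.23, −0.34 to −0.13), and Trib3 the highest, with 41.9 and 46.8 FPM (log2 ratio 0.16, 0.048 to 0.27).

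Genes known as C/EBP targets in granulocytes ranged widely at their promoters in HSCs, from Cybb at 0.029 FPM to Il6ra, which encodes the interleukin-6 receptor, at 42.2 FPM in young cells. Csf2ra (28.8 FPM) and Gfi1 (18.1 FPM) were also open. Of 25 such genes, 18 had at least 50 fragments, and the median level was 2.86 FPM in young and 2.72 FPM in aged cells. Among the 18, 1 passed the fold upward and 3 downward, beside 5.13% and 1.89% of all promoters, with a median log2 ratio of −0.023. Elane, which encodes neutrophil elastase, held 1.59 FPM in young and 2.72 FPM in aged cells (55 and 71 fragments, log2 ratio 0.77, 0.25 to 1.31). Mpo, which encodes myeloperoxidase, held 2.86 and 1.80 FPM (99 and 47 fragments, log2 ratio −0.65, −1.20 to −0.15). The genes of these granule proteins thus differed in opposite directions, both at low levels.

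The other downward values, of Lcn2 (log2 ratio −0.52, −1.44 to 0.28) and Mmp8 (log2 ratio −0.52, −1.46 to 0.31), rested on 56 and 53 fragments. Lower still, but with fewer than 50 fragments, were Chil3 (11 and 3 fragments), Ctsg (11 and 4) and S100a9 (18 and 7), each with an interval across 0. After Elane, the highest ratios among the 18 were those of Csf1r, which encodes the receptor for macrophage colony-stimulating factor, with 0.809 and 0.995 FPM from 28 and 26 fragments (log2 ratio 0.30, −0.53 to 1.12), and Cd14, a co-receptor for bacterial lipopolysaccharide, with 12.4 and 15.04 FPM (log2 ratio 0.28, 0.075 to 0.48). Elane, Mpo, Csf1r and Cd14 are also on the list of granulocyte and monocyte markers above.

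By level, the protein-coding promoters nearest to each member in both libraries were Olfr646 and Taf13 for Cebpa, Ppt2 and Ppil6 for Cebpb, Micu3 and Mtx1 for Cebpd, Marc1 and Npas1 for Cebpe, and Sin3a and Hmox2 for Cebpg. The likeness is the distance of log2 levels over the 2 libraries, at most 0.026, and with 2 values per gene it says only that such levels are common.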

How the data were processed

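The data are 2 single-cell ATAC-seq libraries of C57BL/6 HSCs, 1 per age, with groups as the sample labels give them. Per the study's methods the authors ran Cell Ranger ATAC against mm10, which removes duplicates and shifts fragment ends for the transposase offset, then Signac. The deposited files hold unnormalized counts, unique fragments with their barcodes and the authors' counts per barcode, and listed fragments equalled the authors' count for each of 239185 young and 217516 aged barcodes. Members and lists were chosen with earlier results of these data known.

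Kept barcodes were those called as cells with 3000 to 20000 in-peak fragments. Without the call, 5010 young and 3536 aged barcodes lay in these limits. No doublet caller was run. Peaks were called anew on cut sites of kept cells (windows of 150 bp, Poisson against the larger of the genome's and the 10000-bp mean, q under 0.001) and merged, giving 165353. A fragment counted once where at least 1 end lay in a region of GRCm38 with GENCODE annotation M21 (TSS with 1 kb on either side, gene body, 500-bp bins of 100-kb flanks). Levels are fragments per 1000000 in peaks. The log2 ratio sets aged over young after adding 1 fragment to each. Levels have exact Poisson, shares exact binomial (Clopper-Pearson) and ratios binomial 95% intervals. Called means at least 50 fragments in both libraries together and a log2 ratio of at least 0.5 either way, as a description, since 1 library per age permits no test. Peaks named are, per gene, the 3 with most fragments, the 2 highest and 2 lowest ratios among those with at least 50 fragments, and those in the +37 kb window. For granulocyte targets they are the 3 highest and 3 lowest ratios. Alternatives changed scaling, cell set, thinning, fragment length, counting rule, window and thresholds. Peak calling and ratios were tested on simulated data. Python 3.11.15, NumPy 2.4.6, SciPy 1.17.1 and pandas 2.3.3 were used.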

Additional observations from a re-analysis of the deposited data

How the results depend on the processing

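Under alternatives fixed with the tests, 188 values stayed within the counting interval of the main value, or within 1.5 times a count, 49 moved and 1 reversed. With 1 library per age these labels describe counting error, not a test. The causes were not tested unless an alternative holds fewer fragments or features by its construction. A value is called reversed here where its main interval left out 0 and its sign turned, which was so for the flank ratio of Cebpb, 0.011 when scaled to fragments near all TSSs. The 10 promoter, gene body and flank ratios whose intervals spanned 0 each changed sign under at least 1 alternative. That scaling also moved the flank ratios of Cebpa to 0.073, Cebpe to −0.0058 and Cebpg to 0.068, and scaling to all unique fragments moved those of Cebpb to −0.073 and Cebpe to −0.090. In cells of 5000 to 10000 in-peak fragments, the Cebpb promoter ratio was −0.046 and the flank ratios of Cebpe and Cebpg were −0.021 and −0.034. Cells thinned to 5000 fragments gave promoter ratios of 0.26 for Cebpb, 0.34 for Cebpd, −0.79 for Cebpe and 0.082 for Cebpg, body ratios of −0.094 for Cebpa and 0.29 for Cebpb, and a flank ratio of −0.0091 for Cebpb. The Cebpe promoter ratio was 0.30 within 500 bp of the TSS, from 54 and 50 fragments. Flanks of 50 kb gave −0.023 for Cebpa, 0.066 for Cebpd and 0.078 for Cebpg. Flank bins past the fold numbered 97 higher and 77 lower with at least 20 fragments, 5 and 9 with at least 100, and 5 and 4 past a log2 ratio of 1. Peaks at q under 1e-10 gave 7 higher, no minimum gave 10 higher and 17 lower, and a log2 ratio of 1 left 3 higher and 0 lower. Shares of cells, young then aged, were without thinning 21.3% and 22.4% for Cebpa, 18.5% and 20.9% for Cebpb, 19.8% and 23.7% for Cebpd, 2.64% and 2.58% for Cebpe, and 23.7% and 24.2% for Cebpg. Thinned to 3000 they were 6.59% and 6.93%, 5.73% and 6.61%, 6.24% and 6.90%, 0.839% and 0.411%, and 7.24% and 7.52% in the same order. For peaks, the alternatives were chosen after seeing the data and run for 69 of the flank, promoter and body peaks. None of them turned the sign of a ratio among these whose interval left out 0, and the other flank peaks were not tried. The Cebpa +37.3 kb peak ranged from −0.32 to −0.13, Cebpd +61.1 kb from 0.98 to 1.30, Cebpe −16.8 kb from 1.17 to 1.62 and Cebpe −56.3 kb from 0.49 to 0.78. No paired analysis was possible because each age has 1 library.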
